A study of Mus musculus with 15 samples.

Results

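The lecticans, tenascins and hyaluronan synthases of the neural extracellular matrix were followed in mouse neural stem and progenitor cells with loss or gain of Kat6b, which encodes a histone acetyltransferase. The set held 10 genes, chosen by symbol: the tenascins Tnr and Tnc, the lecticans Ncan, Bcan, Vcan and Acan, the link proteins Hapln1 and Hapln4, and the hyaluronan synthases Has2 and Has3. All 10 were found among the 26263 named genes counted. A filter on low counts kept 15261 genes for testing, among them 9 of the 10 members, and removed Hapln1.

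Hyaluronan is a long unbranched sugar polymer made at the plasma membrane by hyaluronan synthases and extruded into the space between cells. Lecticans are chondroitin sulfate proteoglycans that bind hyaluronan at one end, where link proteins stabilise the contact, and tenascins at the other. In the brain this mesh surrounds germinal zones and migrating cells during development, and part of it later condenses into perineuronal nets. Tenascin-C is known as a product of radial glia and immature astrocytes, and tenascin-R as a product of the oligodendrocyte lineage and some neurons.

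Cells were taken from dorsal telencephalon of E12.5 embryos and cultured as neurospheres with EGF and FGF. Wild-type cells on a C57BL/6 background (WT_B6, n = 3) were compared with Kat6b knockout cells on the same background (KO_B6, n = 4), to ask what loss of Kat6b changes. Wild-type cells from FVBxBALB/c embryos, a mixed background (WT_FvB, n = 2), were compared with cells carrying a Kat6b transgene on that background (Tg_FvB, n = 6), to ask what gain of Kat6b changes. Not given in the sources used here are the promoter of the transgene and the exons lost in the knockout allele. Each library carries a litter and an embryo number. Whether each embryo gave 1 culture is not stated, so p-values may measure technical spread only. The titles of the Tg_FvB libraries call them knockouts, but their genotype field calls them transgenic, and the genotype field was followed. For replicates 5 and 6 of Tg_FvB, the headers of the count columns say wild type. Litter 844, embryo 5 is the label of both WT_B6 replicate 1 and WT_FvB replicate 2, although the backgrounds stated for them differ. Their levels of Kat6b and Tnr, given below, differed as well. The reason for the shared numbers was not tested.

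Libraries held 12336303 to 62819028 counts. Kat6b itself stood at 83.5 to 85.1 CPM (counts brought to a common library total with TMM factors) in WT_B6 and at 60.9 to 66.0 CPM in KO_B6. It stood at 51.8 to 54.4 CPM in WT_FvB and at 139.6 to 288.8 CPM in Tg_FvB, including 139.6 and 288.8 CPM in replicates 5 and 6. Summed over 10 markers of neural stem and radial glial cells, levels ran from 6893 to 10026 CPM, and all 10 were detected in every library. The 6 markers of microglia and blood summed to at most 0.501 CPM. Some libraries were much more alike than others. The 3 WT_B6 libraries, although labelled with 3 litters, KO_B6 replicates 2 and 3, both WT_FvB libraries, and Tg_FvB replicates 1, 2 and 3 (in 2 of their 3 pairs) differed by a pairwise biological coefficient of variation of 0.0172 to 0.0415. The other pairs within groups differed by 0.0503 to 0.275. The near-identical pairs still differed by more than counting noise (chi-square per degree of freedom 2.10 to 11.4), and all libraries were kept. When such libraries were summed into 1 profile each, WT_B6 and WT_FvB held 1 profile each, KO_B6 3 and Tg_FvB 4. No member was then called in any comparison by edgeR's quasi-likelihood test, with unadjusted p under 0.05 for 2 members in the knockout comparison, 1 in the transgene comparison, 1 in the difference of the effects and 2 between the wild types. Over all genes, 5 were called in the knockout comparison and 0 in the others. Every member's call below therefore rests on counting those libraries separately.

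With all libraries kept apart, 4 of the 9 tested members were called in KO_B6 against WT_B6 at an adjusted p under 0.05, where 45.8% of all tested genes were called. Tnr and Ncan were lower, beside 20.9% of all genes, and Acan and Hapln4 were higher, beside 24.8%. In Tg_FvB against WT_FvB only Tnr was called, and it was higher, where 1.84% of all tested genes were called, 0.681% higher and 1.16% lower. Tnr thus moved in opposite directions with loss and gain of Kat6b, each within its own background. Calls in the transgene comparison depended on the fit. Over all genes 281 were called, but 10 with litter as a covariate, and 10 with only these 2 groups in the fit. This limit also applies to the marker and pathway genes called in Tg_FvB below. The median log2 fold change of the 9 members was -0.13 in the knockout comparison and -0.02 in the transgene comparison, beside 0.02 and 0.01 over all tested genes. The groups did not overlap for 6 of the 9 members in the knockout comparison and for 3 of the 9 in the transgene comparison, beside 56.3% and 16% of all tested genes. The count in the knockout comparison lies near the background of all genes.

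**Figure D1:**
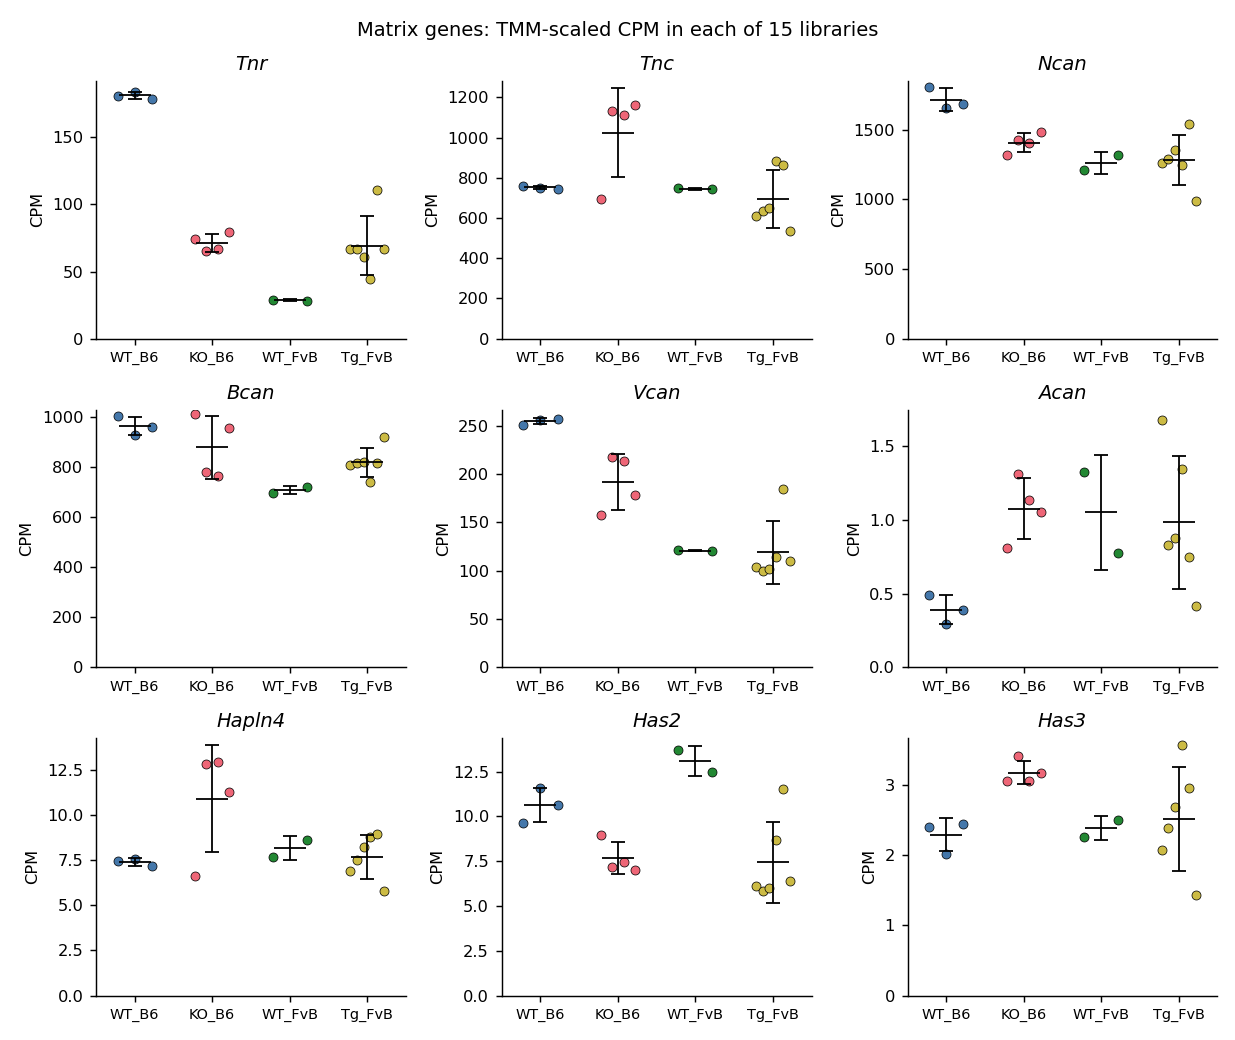
TMM-scaled CPM of the 9 tested members in each of the 15 libraries, by group (WT_B6 n = 3, KO_B6 n = 4, WT_FvB n = 2, Tg_FvB n = 6). Points are libraries, the long bar is the group mean and the error bars are 1 SD. Tnr is highest in WT_B6, lowest in WT_FvB, and between them in KO_B6 and Tg_FvB.

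**Figure D2:**
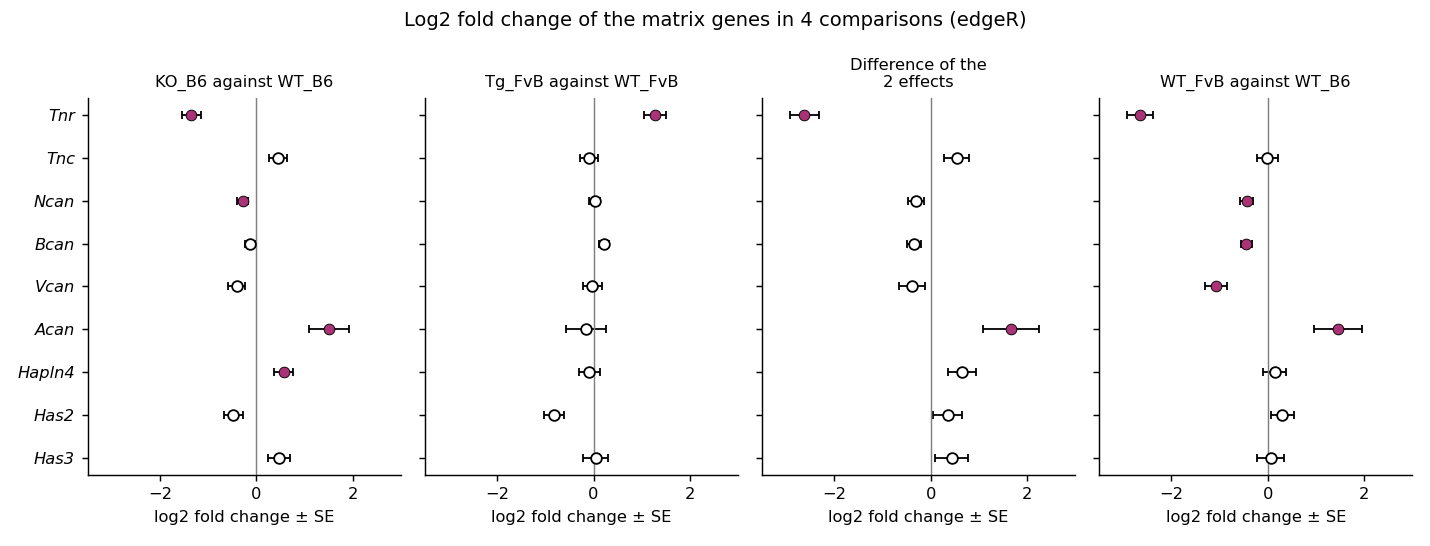
Log2 fold change of each tested member in 4 comparisons, with the standard error as a bar. Filled points passed edgeR's quasi-likelihood test at an adjusted p under 0.05. Tnr is the member called in all 4 comparisons.

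Tnr encodes tenascin-R, a matrix glycoprotein that binds the lecticans and clusters them. The gene (identifier 21960) lies on the plus strand of chromosome 1 at chr1:159523729-159931729 in GRCm38.p6, the assembly of mm10. The 3 WT_B6 libraries held 181.0, 184.1 and 178.7 CPM of Tnr, and the 4 KO_B6 libraries 74.1, 65.0, 66.4 and 79.2 CPM. Every knockout library lay below every wild-type library, and the replicates within each group lay close together. Tnr was 2.55-fold lower in KO_B6 (log2 fold change -1.35 ± 0.19 SE, adjusted p = 8.75e-05 by edgeR's quasi-likelihood test, adjusted after Benjamini and Hochberg over all genes). The fall was seen in both litters that hold the 2 genotypes. In litter 843 the wild-type library held 184.1 CPM and the knockouts 65.0 and 74.1 CPM, and in litter 929 the wild type held 178.7 CPM and the knockouts 66.4 and 79.2 CPM.

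On the mixed background, Tnr stood at 29.2 and 28.3 CPM in the 2 WT_FvB libraries. In the 6 Tg_FvB libraries the lowest value was 44.2, the median 66.7 and the highest 110.5 CPM. All 6 transgenic libraries lay above both wild types, and the highest, replicate 5, lay well above the other 5. Tnr was 2.41-fold higher in Tg_FvB (log2 1.27 ± 0.23 SE, adjusted p = 0.0222, edgeR). The 2 transgenic libraries of the wild types' own litter, 844, held 66.7 CPM each. The call in Tg_FvB needed both wild types: without WT_FvB replicate 1 the edgeR adjusted p was 0.315, and without replicate 2 it was 0.334, with log2 values of 1.28 and 1.24. It was also lost with litter as a covariate (1.21, adjusted p = 0.153) and with only these 2 groups in the fit (1.26, adjusted p = 0.138).

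The knockout effect on Tnr minus the transgene effect was -2.62 ± 0.31 on the log2 scale (adjusted p = 1.36e-04 by edgeR). For such a difference 2 of the 9 members were called, Tnr and Acan, beside 37.3% of all tested genes, 19.6% higher and 17.8% lower. The 2 wild types differed even more than the genotypes did. Tnr was 6.30-fold lower in WT_FvB than in WT_B6 (log2 -2.66 ± 0.27, adjusted p = 1.87e-05 by edgeR). The Tg_FvB libraries, at 44.2 to 110.5 CPM, overlapped the KO_B6 libraries and stayed below every WT_B6 library. Background, litter and culture cannot be told apart between the wild types, although WT_B6 replicate 1 shares litter number 844 with both WT_FvB libraries and held 181.0 CPM. A 443-base stretch of Tnr exon overlaps the antisense gene Gm38039, and whether counting used strand is not given in the sources used here.

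Tnr and Ncan were the members called lower in the knockout, and both were also lower in WT_FvB than in WT_B6, so the sequence upstream of each is shown. RefSeq promoters (build GRCm38.p6) matched 7 of the 10 members. The 200 bases from 250 to 51 bases before the transcription start assumed for each promoter entry are printed. That start differs from the outer end of the gene coordinates given here for Tnr and Ncan. They cover chr1:159523519-159523718 on the plus strand for Tnr and chr8:70120895-70121094 on the minus strand for Ncan. Capitals mark a match to ACAAAG, a core recognised by SOX and TCF factors, or to the E-box CANNTG, the site of bHLH factors, both searched on both strands. Neither sequence holds both of the 2 motifs, so no marked stretches of different motifs overlap.
Tnr: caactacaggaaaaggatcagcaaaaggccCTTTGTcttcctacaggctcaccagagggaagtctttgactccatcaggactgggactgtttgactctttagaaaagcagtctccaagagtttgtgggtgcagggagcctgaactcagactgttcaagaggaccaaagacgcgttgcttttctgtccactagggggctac
Ncan: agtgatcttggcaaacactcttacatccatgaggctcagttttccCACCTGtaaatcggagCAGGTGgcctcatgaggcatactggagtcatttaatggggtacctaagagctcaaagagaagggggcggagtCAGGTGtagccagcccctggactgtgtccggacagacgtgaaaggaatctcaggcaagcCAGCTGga

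The Tnr window held 1 ACAAAG match, on the minus strand, 220 to 215 bases before the assumed start, and no E-box. The Ncan window held 4 E-boxes and no ACAAAG. Among 32851 RefSeq promoter windows of the same length, 13.57% held ACAAAG and 59.05% held an E-box. A shorter SOX core, ACAAT, was in neither window and in 23.68% of all windows. The printed windows of the 2 genes therefore shared none of these motifs, and a match is a description of the sequence only.

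Tnc encodes tenascin-C, the tenascin of germinal zones. It lies on the minus strand at chr4:63959785-64047015. WT_B6 held 761, 748 and 746 CPM, and KO_B6 held 694, 1131, 1113 and 1161 CPM. In KO_B6, 3 libraries lay far above the wild types and replicate 1 lay below them. Tnc did not pass the test in KO_B6 (log2 0.45 ± 0.18, adjusted p = 0.0550, edgeR), and without KO_B6 replicate 1 it did, at log2 0.56 and adjusted p = 0.00723. WT_FvB held 747 and 742 CPM, and Tg_FvB ranged from 535 through a median of 643 to 885 CPM. The transgenic libraries lay on both sides of the wild types (log2 -0.10 ± 0.19, 95% interval -0.52 to 0.32, adjusted p = 0.814, edgeR). Between the wild types the fitted log2 difference in Tnc was -0.01 (95% interval -0.48 to 0.46), while Tnr differed 6.30-fold. A 176-base stretch of Tnc exon overlaps 8030451A03Rik on the other strand.

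The balance between the tenascins therefore differed between groups. On a scale of CPM per kb of gene length, which allows levels of different genes to be compared, Tnc exceeded Tnr 3.09- to 3.20-fold in WT_B6 and 7.12- to 13.2-fold in KO_B6. The ratio was 19.5 to 19.9 in WT_FvB and 5.93 to 15.2 in Tg_FvB. Tnr made up 23.8% to 24.5% of the tenascin sum in WT_B6, 7.04% to 12.3% in KO_B6, 4.79% to 4.89% in WT_FvB and 6.17% to 14.4% in Tg_FvB. These ranges did not overlap between each wild type and its comparison group, and no test was run on the ratio.

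Markers of other cell types moved beside Tnr. Sox10, a transcription factor of the oligodendrocyte lineage, fell from 67.1 ± 5.52 CPM (SD, n = 3) in WT_B6 to 35.8 ± 3.95 CPM (n = 4) in KO_B6 (adjusted p = 0.00123, edgeR). It rose from 17.4 ± 0.522 CPM (n = 2) in WT_FvB to 39.6 ± 10.4 CPM (n = 6) in Tg_FvB (adjusted p = 0.0232, edgeR). Gpr17, a receptor of early oligodendrocyte-lineage cells, fell from 416 to 136 CPM in KO_B6 (adjusted p = 2.73e-04, edgeR). It rose from 74.4 to 187 CPM in Tg_FvB (adjusted p = 0.0481, edgeR). For both genes WT_B6 was the highest group and WT_FvB the lowest, as for Tnr. The rest of the lineage list did not move as one. Olig2 rose in KO_B6 (637 to 947 CPM, adjusted p = 1.24e-04, edgeR), and Pdgfra was 137 CPM in WT_B6 and 148 CPM in KO_B6. Olig1 was 1572 and 1694 CPM (adjusted p = 0.488, edgeR). Pdgfra was lowest in WT_FvB, as Tnr was, at 83.5 CPM against 130 CPM in Tg_FvB (adjusted p = 0.142, edgeR). Olig1 held 1181 and 1226 CPM in WT_FvB and Tg_FvB (adjusted p = 0.850, edgeR), and Olig2 588 and 635 CPM (adjusted p = 0.549, edgeR). The myelin genes Mbp and Mog ran the other way from Tnr between the wild types. Mbp, which encodes myelin basic protein, stood at 59.5 CPM in WT_B6 and 213 CPM in WT_FvB (log2 1.84 ± 0.38, adjusted p = 0.00121, edgeR). It was 36.0 CPM in KO_B6 (adjusted p = 0.0738, edgeR) and 206 CPM in Tg_FvB (adjusted p = 0.959, edgeR). Mog, a myelin surface protein, rose from 0.278 CPM in WT_B6 to 0.658 CPM in WT_FvB (adjusted p = 0.00993, edgeR) and was not called in KO_B6 (0.277 CPM) or Tg_FvB (0.706 CPM). Mog was barely detected, with at most 10 counts in a WT_B6 library and 17 in a WT_FvB library. Of the 7 markers of this list, 1 was higher and 2 were lower in KO_B6, beside 24.8% and 20.9% of all tested genes. In Tg_FvB 2 were higher, beside 0.681% of all tested genes. Between the wild types 2 were higher and 4 were lower in WT_FvB, beside 25.4% and 23.5%. The summed level of the 7 markers was 2828 to 2995 CPM in WT_B6, 2662 to 3168 in KO_B6, 2147 to 2168 in WT_FvB and 1950 to 2855 in Tg_FvB, and none was at 0 in any library. Most of this sum came from Olig1 and Olig2.

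**Figure D3:**
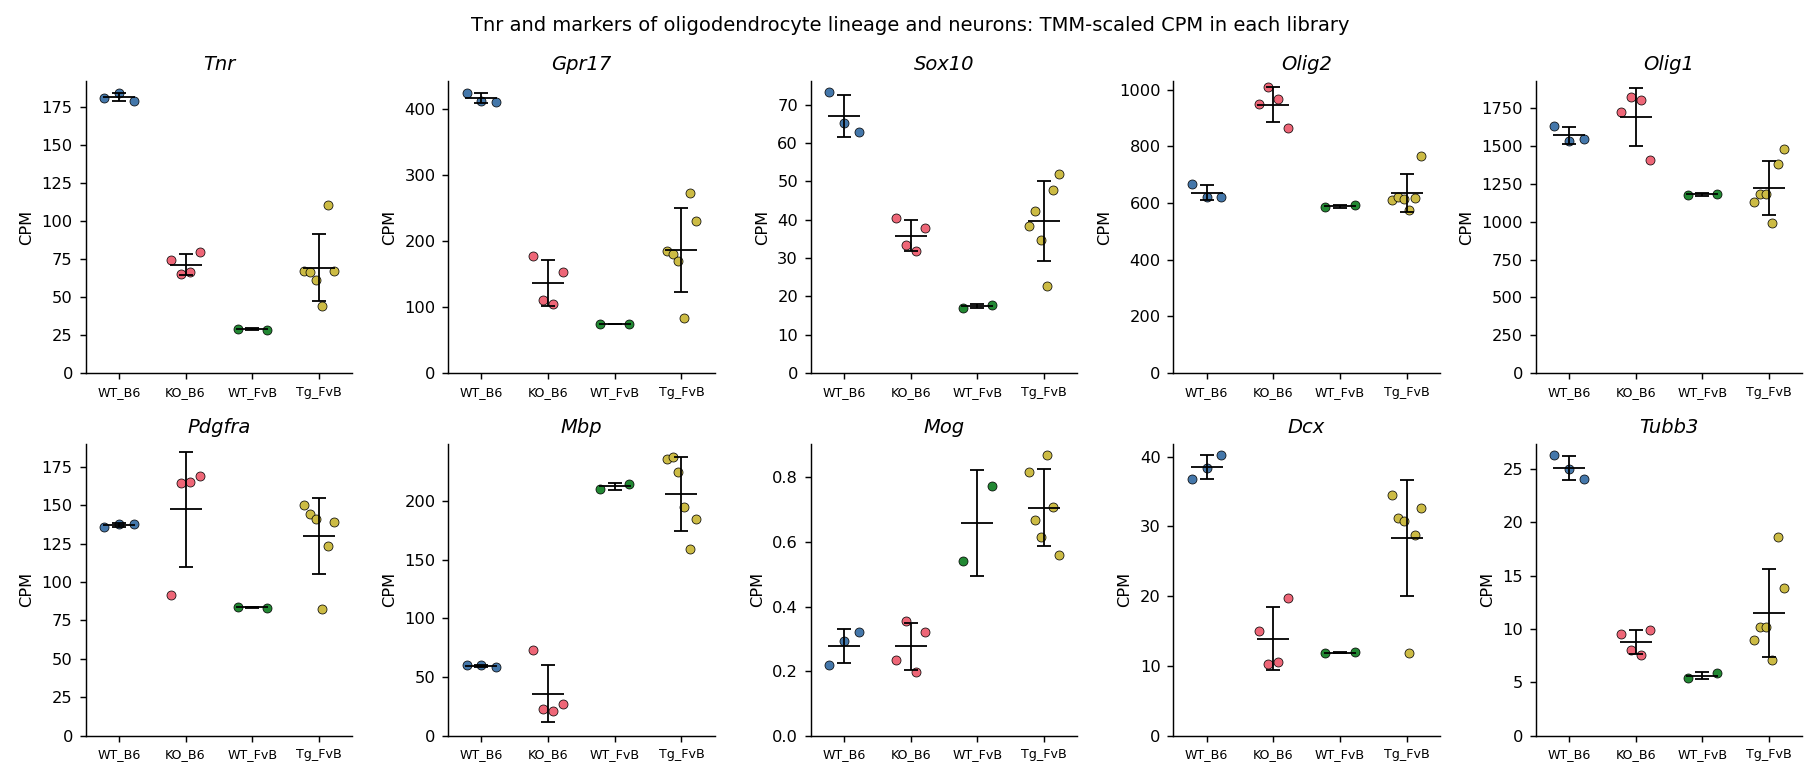
TMM-scaled CPM of Tnr, 7 oligodendrocyte-lineage markers (Gpr17, Sox10, Olig2, Olig1, Pdgfra, Mbp, Mog) and 2 neuronal markers (Dcx, Tubb3) in each of the 15 libraries. Points are libraries, the long bar is the mean and the error bars are 1 SD. By group mean, Gpr17, Sox10, Dcx and Tubb3 are highest in WT_B6 and lowest in WT_FvB, as Tnr is. Dcx and Tubb3 were picked from 7 neuronal markers after their values were seen. Snap25 and Stmn2, not plotted, are lowest in WT_B6. Olig2 is highest in KO_B6, and Mbp and Mog are higher in both FvB groups than in both B6 groups.

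The neuronal markers Dcx and Tubb3 also fell in KO_B6, from 38.5 to 13.9 CPM (adjusted p = 5.43e-04, edgeR) and from 25.1 to 8.79 CPM (adjusted p = 1.08e-04, edgeR). In Tg_FvB they stood at 28.3 and 11.5 CPM against 11.9 and 5.60 CPM in WT_FvB, with edgeR adjusted p-values of 0.0635 and 0.0683. Of the 7 neuronal markers, Snap25 was higher (2.70 to 5.46 CPM) and Dcx and Tubb3 were lower in KO_B6, and Rbfox3 was higher in Tg_FvB (0.358 to 2.06 CPM). Over all tested genes, 24.8% were higher and 20.9% lower in KO_B6, and 0.681% were higher in Tg_FvB. By group mean, Snap25 was lowest in WT_B6 and highest in WT_FvB (6.10 CPM), the reverse of Tnr. Stmn2, barely detected, was lowest in WT_B6 (0.0867 CPM) and highest in Tg_FvB (0.562 CPM). Rbfox3 was highest in KO_B6 (3.15 CPM). Syt1 was highest in WT_B6 (20.2 CPM) and lowest in WT_FvB (3.91 CPM), as Tnr was. Between the wild types 1 of the 7 was higher and 4 were lower in WT_FvB, beside 25.4% and 23.5% of all tested genes. The sum of the 7 neuronal markers was 1147 to 1157 CPM in WT_B6, 1046 to 1168 in KO_B6, 983 to 1030 in WT_FvB and 878 to 1112 in Tg_FvB, and the most any library had at 0 was 1 of the 7. Map2 alone held means of 1061, 1068, 978 and 982 CPM in these groups, so the sum barely registers the other markers. Of the 7 astrocyte markers, 5 fell in KO_B6 and 3 in Tg_FvB, beside 20.9% and 1.16% of all tested genes. The sum of the 7 astrocyte markers was highest in WT_FvB, at 1482 to 1502 CPM, against 997 to 1000 in WT_B6, 626 to 841 in KO_B6 and 1008 to 1240 in Tg_FvB. None of these 7 was at 0. In bulk RNA, fewer cells of a type and less RNA per cell cannot be told apart, and the part of these markers in the Tnr result was not tested.

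Ncan encodes neurocan, the soluble lectican of the developing brain, and lies on the minus strand at chr8:70093085-70120863. WT_B6 held 1808, 1653 and 1681 CPM, and KO_B6 1314, 1423, 1406 and 1485 CPM. The knockout libraries all lay below the wild types, though the gap was narrow. Ncan fell 1.22-fold (log2 -0.28 ± 0.11, adjusted p = 0.0426, edgeR). The call was lost without any 1 of 6 of the 7 libraries of this comparison, KO_B6 replicate 4 being the exception, with adjusted p-values of 0.0501 to 0.141. It was also lost with litter as a covariate (log2 -0.24, adjusted p = 0.181, edgeR). In WT_FvB, Ncan stood at 1207 and 1316 CPM, and in Tg_FvB at 988, a median of 1276 and 1541 CPM. The transgenic libraries spanned the wild-type values (log2 0.02 ± 0.12, 95% interval -0.23 to 0.28, adjusted p = 0.945, edgeR).

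Bcan encodes brevican, a lectican of glial cells, at chr3:87987531-88002175 on the minus strand. It held 1002, 930 and 959 CPM in WT_B6 and 1014, 779, 766 and 955 CPM in KO_B6. The groups overlapped, and Bcan did not pass the test (log2 -0.13 ± 0.09, 95% interval -0.34 to 0.08, adjusted p = 0.268, edgeR); without KO_B6 replicate 1, the highest knockout, it was called lower (-0.24, adjusted p = 0.0386). In WT_FvB it held 697 and 720 CPM, and in Tg_FvB 740, a median of 816 and 919 CPM. All transgenic libraries lay above both wild types, yet the difference was small and did not pass (log2 0.21 ± 0.10, adjusted p = 0.294, edgeR).

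Vcan encodes versican, the large lectican of migratory paths and of oligodendrocyte precursors, at chr13:89655309-89743027 on the minus strand. It held 251, 256 and 258 CPM in WT_B6 and 158, 218, 214 and 178 CPM in KO_B6. Each knockout library lay below each wild type, but the knockouts were spread and the test was missed (log2 -0.41 ± 0.18, adjusted p = 0.0707, edgeR). DESeq2 called Vcan lower (-0.43, adjusted p = 0.0419), as did edgeR without KO_B6 replicate 2 (-0.50, adjusted p = 0.04997). WT_FvB held 121.1 and 120.6 CPM, and Tg_FvB 99.4, a median of 107 and 185 CPM. Of the transgenic libraries, 5 lay below both wild types and replicate 5 lay far above them (log2 -0.02 ± 0.19, adjusted p = 0.964, edgeR).

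Acan encodes aggrecan, the lectican of cartilage and of perineuronal nets, at chr7:79053226-79115099 on the plus strand, and was barely detected. WT_B6 held 0.491, 0.293 and 0.387 CPM, and KO_B6 0.811, 1.31, 1.13 and 1.06 CPM. These rest on 9 to 12 counts per wild-type library and 31 to 74 per knockout library. All knockouts lay above all wild types, and Acan rose 2.76-fold by the ratio of means (log2 1.50 ± 0.42, adjusted p = 0.00838, edgeR). Without WT_B6 replicate 2 the adjusted p was 0.0528. WT_FvB held 1.33 and 0.775 CPM and Tg_FvB 0.413, a median of 0.857 and 1.68 CPM, with no separation (log2 -0.16 ± 0.42, adjusted p = 0.865, edgeR). The knockout effect on Acan minus the transgene effect was 1.67 ± 0.59 (adjusted p = 0.0372, edgeR), and that call was lost in 12 of 23 other settings, among them leaving out WT_FvB replicate 1 (1.21, adjusted p = 0.228) and the near-identical libraries summed. Of the other members, Tnc (0.67, adjusted p = 0.0213), Bcan (-0.44, adjusted p = 0.0140) and Hapln4 (0.81, adjusted p = 0.00699) passed edgeR's test of this difference without KO_B6 replicate 1.

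Between the wild types, 5 of 9 members were called, 4 lower and 1 higher in WT_FvB, where 48.9% of all tested genes were called, 23.5% lower and 25.4% higher. Beside Tnr, the 3 abundant lecticans were lower in WT_FvB: Vcan 2.11-fold (log2 -1.08 ± 0.22, adjusted p = 0.00123, edgeR), Bcan 1.36-fold (-0.44 ± 0.12, adjusted p = 0.00551, edgeR) and Ncan 1.36-fold (-0.44 ± 0.13, adjusted p = 0.0119, edgeR). Acan was higher (log2 1.45 ± 0.51, adjusted p = 0.0268, edgeR). Without WT_FvB replicate 1 the calls of Ncan (adjusted p = 0.0979, edgeR) and Acan (adjusted p = 0.241, edgeR) were lost, and that of Acan also without WT_B6 replicate 2 (0.0865) or 4 (0.0608). Groups did not overlap for 7 of the 9, against 78.3% of all tested genes, so the count of members is no larger than that of genes at large.

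The lectican mixture, by CPM per kb, was dominated by Bcan and Ncan in all 15 libraries. Bcan made up 49.4% to 50.0% of the 4 lecticans in WT_B6, 48.8% to 57.8% in KO_B6, 49.6% to 50.9% in WT_FvB and 48.5% to 62.4% in Tg_FvB. Ncan made up 46.5% to 47.4%, 39.8% to 47.6%, 46.8% to 48.2% and 35.7% to 48.7%. The wild types were thus close to an even mixture, and single libraries stood off it: KO_B6 replicate 1 had 57.8% Bcan and Tg_FvB replicate 6 had 62.4%. Vcan made up 3.21% to 3.54% in WT_B6 and 2.15% to 2.29% in WT_FvB. The lectican sum was 492 to 533 CPM per kb in WT_B6, 412 to 470 in KO_B6, 360 to 381 in WT_FvB and 376 to 442 in Tg_FvB.

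Link proteins were scarce. Hapln1, the link protein of cartilage and of perineuronal nets, at chr13:89540529-89611832 beside Vcan, had no count in the 3 WT_B6 libraries. It had 0, 2, 6 and 3 counts in KO_B6, 3 and 1 in WT_FvB, and 0 to 2 in Tg_FvB. A count of 0 in WT_B6 allows up to 3 counts per library, or 0.0966 to 0.162 CPM. The count filter removed Hapln1, so no difference between groups was tested.

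Hapln4, a brain link protein that partners brevican, lies at chr8:70083529-70090862, next to Ncan. It held 7.47, 7.56 and 7.15 CPM in WT_B6 and 6.62, 12.8, 12.9 and 11.2 CPM in KO_B6. As for Tnc, KO_B6 replicate 1 stayed with or below the wild types while the other 3 lay above them. Hapln4 was called higher (log2 0.56 ± 0.20, adjusted p = 0.0313, edgeR), and the call was lost in 9 of 14 other settings, among them leaving out any library of this comparison but KO_B6 replicate 1 (adjusted p 0.0574 to 0.107, edgeR). WT_FvB held 7.68 and 8.61 CPM, and Tg_FvB 5.80, a median of 7.87 and 8.96 CPM, with overlap (log2 -0.09 ± 0.22, adjusted p = 0.851, edgeR).

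Has2, the synthase that makes most hyaluronan in embryos, lies at chr15:56665627-56694546 on the minus strand. It held 9.65, 11.6 and 10.7 CPM in WT_B6 and 8.98, 7.20, 7.45 and 7.01 CPM in KO_B6. The knockouts lay below the wild types without passing the test (log2 -0.48 ± 0.20, adjusted p = 0.0624, edgeR), which was passed without KO_B6 replicate 1 (-0.59, adjusted p = 0.0333) and by DESeq2 (-0.50, adjusted p = 0.0354). WT_FvB held 13.69 and 12.48 CPM, and Tg_FvB 5.86, a median of 6.26 and 11.5 CPM. Here too the transgenic libraries all lay below the wild types, 4 of them at 5.86 to 6.41 CPM (log2 -0.83 ± 0.21, adjusted p = 0.0613, edgeR). Has2 was past the threshold in DESeq2 (log2 -0.84, adjusted p = 0.00860) and in edgeR without Tg_FvB replicate 5 (-1.01, adjusted p = 0.00288) or without replicate 4 (adjusted p = 0.0198). It was past it too with only the transgenic libraries of litter 844, a setting chosen after seeing the data (-1.14, adjusted p = 5.15e-04). Has2 stayed uncalled in 11 of 17 other settings in Tg_FvB, among them litter as a covariate and only the groups compared in the fit. In KO_B6 it stayed uncalled in 10 of 14 other settings. Exons of Has2 overlap the antisense Has2os over 182 bases.

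Has3, the synthase of shorter hyaluronan chains, lies at chr8:106870242-106882902 on the plus strand. It held 2.40, 2.02 and 2.45 CPM in WT_B6 and 3.06, 3.41, 3.06 and 3.17 CPM in KO_B6. The knockouts lay above the wild types without passing the test (log2 0.47 ± 0.22, adjusted p = 0.0970, edgeR). With only these 2 groups in the fit, Has3 was called higher (0.46, adjusted p = 0.0169, edgeR). WT_FvB held 2.26 and 2.51 CPM and Tg_FvB 1.43, a median of 2.54 and 3.56 CPM, with overlap (log2 0.04 ± 0.25, adjusted p = 0.948, edgeR). By CPM per kb, Has2 exceeded Has3 5.60- to 7.98-fold in WT_B6 and 2.95- to 4.08-fold in KO_B6. The ratio was 6.94 to 8.42 in WT_FvB and 3.11 to 6.23 in Tg_FvB. It was lower in every knockout and transgenic library than in the wild types of its background, and no test was run on it. Exons of Has3 overlap Chtf8, on the other strand, over 352 bases. The part of Chtf8 reads in the low Has3 counts was not tested.

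**Figure D4:**
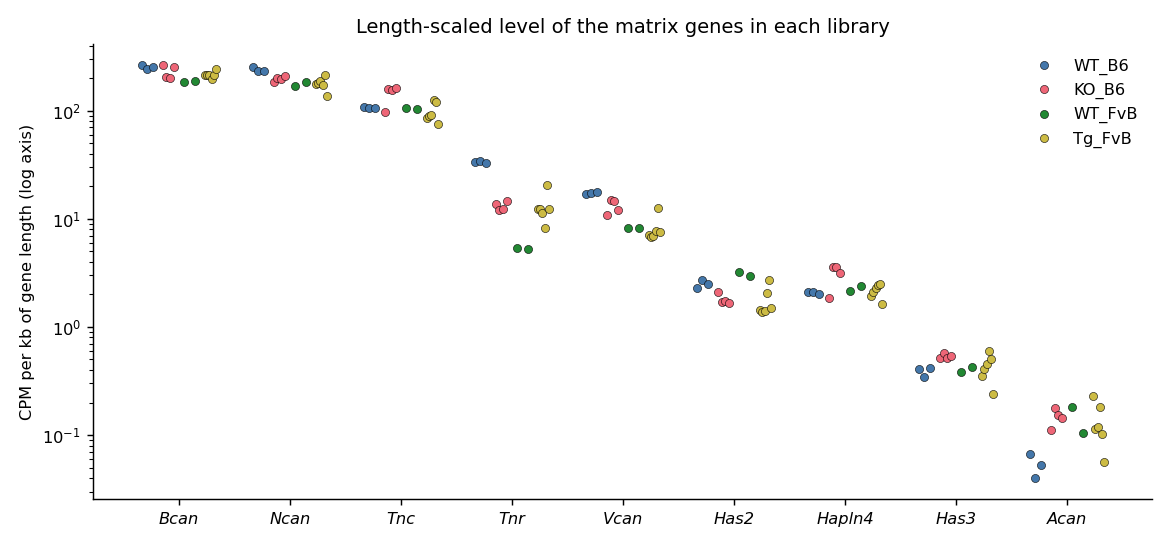
Length-scaled level (CPM per kb of gene length, log axis) of the 9 tested members in each library, coloured by group. Bcan and Ncan lie between 138 and 266 CPM per kb, Tnr and Vcan between 5.25 and 34.1, and Acan at or below 0.229.

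The order of length-scaled levels was much the same in all groups. In WT_B6 it ran from Bcan (253 ± 9.58 CPM per kb, SD, n = 3) and Ncan (239 ± 11.5) through Tnc (106 ± 1.18), Tnr (33.6 ± 0.502) and Vcan (17.4 ± 0.227) to Has2 (2.50 ± 0.226), Hapln4 (2.07 ± 0.0601), Has3 (0.387 ± 0.0396) and Acan (0.0530 ± 0.0134). The ranges of Bcan and Ncan overlapped in all 4 groups, but within a library Bcan stood above Ncan in 14 of the 15, the exception being 1 Tg_FvB library. Tnr and Vcan exchanged places: Tnr stood above Vcan in WT_B6 and below it in WT_FvB (5.33 against 8.23 CPM per kb), and their ranges overlapped in KO_B6 and Tg_FvB. Within a library Tnr stood above Vcan in 2 of 4 KO_B6 and in all 6 Tg_FvB libraries. Has2 stood above Hapln4 in every wild-type library of both backgrounds, but in 1 of 4 KO_B6 and 1 of 6 Tg_FvB libraries.

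The genes whose levels followed each member most closely over the 15 libraries were named among 10606 genes by Pearson's correlation of log2 CPM. This is a description, since the libraries share groups, litters and near-identical profiles. Tnr was followed by the protocadherin Pcdhb22 (r = 0.99), the phosphatase regulator Ppp1r16b (r = 0.98) and the GABA-B receptor subunit Gabbr2 (r = 0.98). Pcdhb22 belongs to a family of similar genes whose reads may be split. Gabbr2 held mean levels of 29.4 CPM in WT_B6, 6.94 in KO_B6, 1.47 in WT_FvB and 6.52 in Tg_FvB. Tnc and Hapln4 shared their nearest neighbours, Pkd1 (r = 0.97 with each) and Tanc1 (r = 0.96 with each). Pkd1 stood at 260 CPM in KO_B6 and between 158 and 168 CPM in the other groups. Vcan was followed by Jmjd1c (r = 0.99), Ncan by Rprd2 (r = 0.98), Bcan by Brf1 (r = 0.95), Has2 by Dbx2 (r = 0.94), Acan by Scai (r = 0.93) and Has3 by Ercc6 (r = 0.89).

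The listed genes of chondroitin sulfate chain synthesis, which are not particular to lecticans, rose in KO_B6 or did not pass the test. Of 13 genes of chain synthesis, 8 were called higher and none lower in KO_B6 (median log2 0.24), beside 24.8% and 20.9% of all tested genes. None was called in Tg_FvB, beside 1.84% of all tested genes. Xylt1, which starts the chain on the core protein, rose from 81.3 to 133 CPM (log2 0.71 ± 0.13, adjusted p = 3.92e-04, edgeR). B3galt6, which adds a galactose of the linker, rose from 14.2 to 23.5 CPM, and the polymerising factor Chpf from 49.8 to 74.6 CPM. In WT_FvB, Chpf stood at 82.6 CPM, also above WT_B6 (log2 0.73, adjusted p = 8.01e-04, edgeR).

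Of 9 tested genes of chondroitin and dermatan sulfate modification, 3 were higher and 2 lower in KO_B6, beside 24.8% and 20.9% of all tested genes. In Tg_FvB the share of all tested genes called was 1.84%. The sulfotransferase Chst11 rose from 133 to 272 CPM (log2 1.03 ± 0.19, adjusted p = 5.08e-04, edgeR), Chst7 from 76.6 to 138 CPM and Dsel, an epimerase-like gene, from 11.6 to 16.9 CPM. In WT_FvB, Chst11 stood at 278 CPM and Dsel at 17.7 CPM, both also above WT_B6 (adjusted p = 0.00123 and 3.26e-04, edgeR). Chst7 stood at 81.3 CPM there and was not called against WT_B6 (adjusted p = 0.655, edgeR). In Tg_FvB the single call was Ust, a uronyl sulfotransferase, which rose from 15.9 to 26.8 CPM (log2 0.76 ± 0.18, adjusted p = 0.0494, edgeR). Ust stood at 37.9 CPM in WT_B6 and 27.9 CPM in KO_B6, where it was lower (adjusted p = 0.0317, edgeR).

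Hyaluronan receptors and turnover genes were mixed, with 3 of 10 tested higher and 3 lower in KO_B6, beside 24.8% and 20.9% of all tested genes. In Tg_FvB the share of all tested genes called was 1.84%. Cd44, the main hyaluronan receptor, rose from 34.5 to 68.2 CPM in KO_B6 (log2 0.98 ± 0.21, adjusted p = 0.00135, edgeR). It stood higher still in WT_FvB, at 106 CPM, and at 87.7 CPM in Tg_FvB. The hyaluronidase Hyal1 fell from 9.35 to 6.44 CPM, and Itih5, an inter-alpha-trypsin inhibitor heavy chain, from 8.85 to 6.22 CPM. Itih5 was also the single call of this list in Tg_FvB, where it fell from 15.7 to 9.93 CPM (log2 -0.67 ± 0.14, adjusted p = 0.0339, edgeR).

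Among 19 receptors and surface partners of lecticans and tenascins, 4 were higher and 5 lower in KO_B6, and 1 was lower in Tg_FvB. The shares over all tested genes were 24.8%, 20.9% and 1.16%, so the counts in KO_B6 lie near the background. Nfasc, a neurofascin that binds brevican, fell from 46.8 to 24.7 CPM in KO_B6 (log2 -0.92 ± 0.17, adjusted p = 4.42e-04, edgeR). The integrin subunit Itgb8 fell from 202 to 133 CPM, and the syndecan Sdc1 rose from 15.5 to 26.1 CPM. In Tg_FvB the syndecan Sdc4 fell from 74.5 to 41.7 CPM (log2 -0.85 ± 0.20, adjusted p = 0.0455, edgeR).

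Of 7 lectican-cleaving proteases, 2 were higher and none lower in KO_B6, and none was called in Tg_FvB. Over all tested genes, 24.8% were higher and 20.9% lower in KO_B6, and 1.84% were called in Tg_FvB. The count of higher proteases thus lies near the background. Adamts1 rose 2.96-fold, from 21.2 ± 0.236 CPM (SD, n = 3) to 62.8 ± 14.1 CPM (n = 4) (log2 1.57 ± 0.18, adjusted p = 2.09e-05, edgeR). Adamts9 rose from 23.2 to 42.3 CPM. Adamts1 and Adamts9 were also above WT_B6 in WT_FvB, at 54.6 and 40.0 CPM. Of 5 tested further chondroitin sulfate proteoglycans, 2 were lower in KO_B6, among them Spock2, a testican, which fell from 59.3 to 33.6 CPM (log2 -0.82 ± 0.21, adjusted p = 0.00488, edgeR), and 1 was lower in Tg_FvB. Of 4 tested further members of the tenascin, link protein and synthase families, 1 was higher in KO_B6 and none was called in Tg_FvB. The shares over all tested genes given for the proteases apply to both of these lists too.

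**Figure D5:**
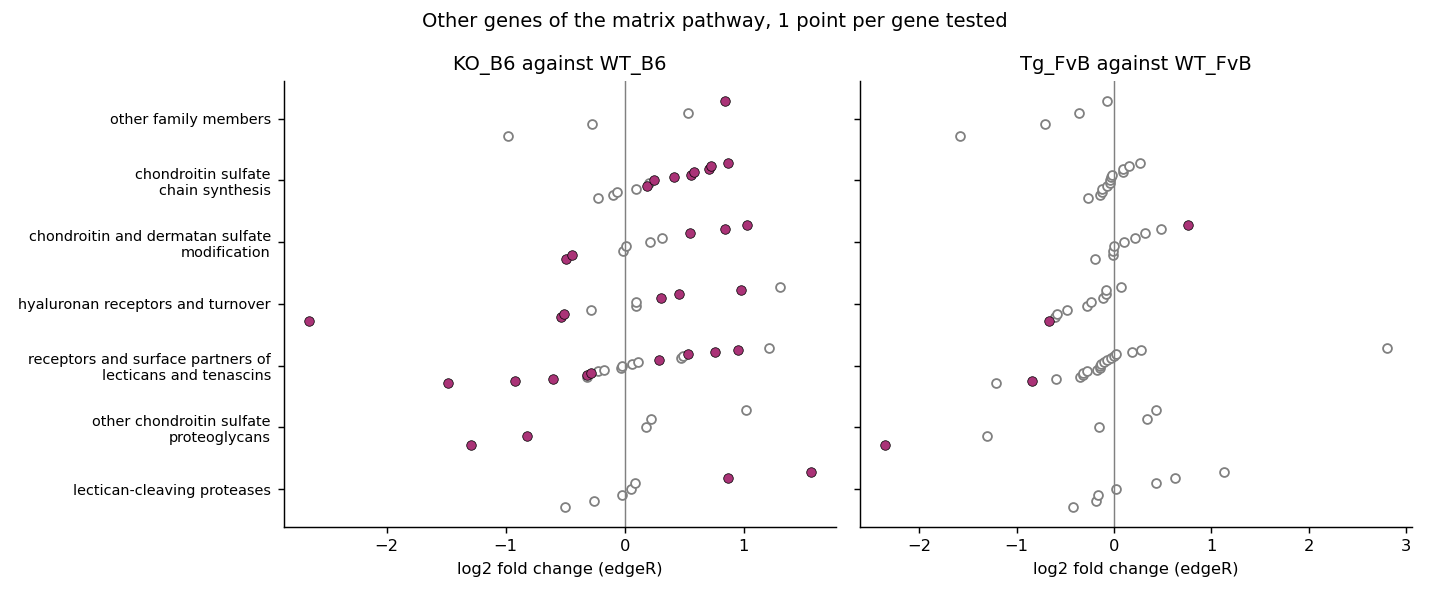
Log2 fold change of each tested gene of 7 pathway lists in KO_B6 against WT_B6 and in Tg_FvB against WT_FvB, 1 point per gene. Filled points passed edgeR's quasi-likelihood test at an adjusted p under 0.05. In KO_B6 the filled points of chondroitin sulfate chain synthesis all lie above 0, and in Tg_FvB no list holds more than 1 filled point.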

How the data were processed

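Libraries of total RNA (TruSeq RNA prep kit v2) gave 66 bp paired-end reads, per the labels. The authors deposited raw counts of each gene, made with bcl2fastq, featureCounts and the build mm10, per the submitters' processing notes. Aligner, annotation, versions and strand setting: not given in the sources used here. Each file's deposited gene length gave CPM per kb. The 917 unnamed rows held 0.450% to 0.545% of counts and were left out.

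All 15 libraries were fitted in 1 edgeR 4.0.16 quasi-likelihood model (R 4.3.3, limma 3.58.1) with TMM scaling, 1 coefficient per group (residual df 11), filterByExpr at a minimum count of 10, and Benjamini-Hochberg adjustment over 15261 genes with a threshold of 0.05. SEs derive from the F statistic. The fit was tested on simulated counts. Alternatives included DESeq2 1.42.0. The text names all members and, per pathway list, up to 3 called genes of largest fold with a mean of at least 5 CPM. All 7 neuronal markers are named, and Dcx and Tubb3 were picked for the figure and for fuller description after the values were seen. All 7 oligodendrocyte-lineage markers tested are named, and 1 further marker first listed there is not reported here. Near-identical means a biological coefficient of variation under 0.05. The members and lists were chosen with earlier results of these data known. The floor of 3 counts allows for counting error alone: with no molecular identifiers, amplified copies of 1 molecule may be counted more than once.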

Additional observations from a re-analysis of the deposited data

Results flagged for a closer look

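In KO_B6, replicate 1 held 694 CPM of Tnc while the other 3 libraries held 1113 to 1161 CPM. In Tg_FvB, replicate 5 held 110.5 CPM of Tnr against 44.2 to 66.7 CPM in the other 5, and 185 CPM of Vcan against 99.4 to 114 CPM. Each of these 3 values stood apart from its group by Dixon's test, out of 18 sets of a member in a group. Chance flags about 1 set in 20 where values are independent. Both groups hold near-identical libraries and the members share libraries, so that rate may not hold here. Replicate 5 is 1 of the 2 transgenic libraries whose count columns are headed as wild types, and it held the lowest Kat6b level of the group, at 139.6 CPM; the part of this in its Tnr and Vcan values was not tested. The knockout and transgene effects differed by an edgeR interaction contrast for Tnr (knockout minus transgene -2.62 on the log2 scale) and for Acan (1.67).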

How the results depend on the processing

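Against 4, 1, 2 and 5 members called in the knockout, transgene, difference and wild-type comparisons, another size factor (RLE) and no count filter changed no count by over 1.5 times. DESeq2 called 7 members in the knockout and 2 in the transgene comparison. With litter as a covariate 2, 0, 1 and 3 members were called. With only the 2 groups compared in the fit, 7 and 0 were called in the first 2. With near-identical libraries summed, 0 were called in each. The labels share replicate numbers across groups, but same-numbered libraries did not deviate together (r from -0.02 to 0.08), and a replicate block gave 8 members in the knockout and 2 in the transgene comparison. Under it Tnc (0.41, adjusted p = 0.0369), Vcan (-0.44, adjusted p = 0.00375), Has2 (-0.46, adjusted p = 0.0262) and Has3 (0.49, adjusted p = 0.0354) were called in the knockout comparison by edgeR. Without Tg_FvB replicates 5 and 6, 2 were called in the transgene comparison; with only the transgenic libraries of litter 844 (chosen after seeing the data), 2 there and 4 in the difference. Leaving out 1 library at a time gave 1 to 6, 0 to 2, 1 to 5 and 3 to 5.

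Fitted log2 values that changed sign were all small and uncalled. In the transgene comparison, leaving out 1 library at a time gave -0.053 to 0.078 for Ncan, -0.20 to 0.024 for Vcan, -0.51 to 0.26 for Acan and -0.064 to 0.16 for Has3. Vcan was 0.072 with near-identical libraries summed. Acan was 0.18 with the replicate block, 0.22 with the litter covariate, 0.12 without Tg_FvB replicates 5 and 6, and 0.19 with litter 844 only. Has3 was -0.092 with the litter covariate and -0.10 with litter 844 only. Between the wild types, Tnc was 0.077 with the replicate block, and Has3 was -0.0075 with the litter covariate and -0.027 to 0.13 with 1 library left out. The causes were not tested.

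Over all genes, calls in the transgene comparison, 281, moved to 10 with the litter covariate and with only the 2 groups, 2 without either WT_FvB library, 59, 62 and 88 without Tg_FvB replicate 1, 2 or 3, 1763 and 606 without replicate 4 or 5, 638 without 5 and 6, 2056 with litter 844 only, and 721 by DESeq2.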
